A study of Mus musculus with 2 samples.

Results

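In the pregnant mouse uterus, 9 genes that move water and salt across epithelia and vessel walls were followed: the water channels Aqp1, Aqp3, Aqp4, Aqp5 and Aqp8, the chloride channel Cftr, and Scnn1a, Scnn1b and Scnn1g, which encode the 3 subunits of the epithelial sodium channel ENaC. They were chosen by gene symbol, and all 9 were found among the 22740 genes of the deposited table. RNA was sequenced from the whole uterus of 2 C57BL/6 mice titled WT on day 4 of pregnancy, 1 library per animal. The animals form 1 group with no treatment, and each is named here by the number in its title (uterus 1, uterus 2). Levels are the authors' RPKM, which divides the reads of a gene by transcript length and library size, so that genes can be compared with each other. They are given as mean ± SD over the 2 uteri.

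Aquaporins are membrane pores that let water follow salt, and some of them also pass glycerol. CFTR lets chloride and bicarbonate out of epithelial cells, and water follows into the lumen, whereas ENaC takes sodium up from the lumen and water follows out of it. The rodent uterus fills with fluid under oestrogen, and before implantation fluid is absorbed and the lumen closes around the embryo. In a whole uterus, fewer cells of a type and less RNA per cell cannot be told apart.

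The reads behind each value were recovered from the steps in the RPKM values. In all, 3894311 reads were recovered from uterus 1 and 4330175 from uterus 2, and the 9 genes held 765 and 934 of them. Aqp1 alone held 675 and 743, so the other 8 genes rest on 90 and 191 reads in all. Intervals below are exact 95% Poisson intervals for a level and exact 95% binomial (Clopper-Pearson) intervals for a fold, and both cover counting error only. Markers of the tissue were present in both uteri. The medians in uterus 1 and uterus 2 were 38.8 and 40.7 RPKM for 6 epithelial genes, 235 and 247 RPKM for 5 stromal genes, 314 and 350 RPKM for 5 smooth muscle genes and 40.2 and 40.0 RPKM for 5 endothelial genes. Single markers were not all alike. Reads of every gene with at least 6 were compared between the libraries by a two-sided exact binomial test with Benjamini-Hochberg adjustment. It called 6 of these 21 markers, against 4.95% of all genes tested. The test calls smaller changes in genes with more reads, such as Acta2 on 6436 and 6479, so that share is not a like background. None of the 21 markers was at least 2-fold apart, against 2.6% of all genes with a mean of 1 RPKM or more. Higher in uterus 2 were Krt18, an epithelial keratin, from 70.4 to 94.3 RPKM, Dcn, a stromal proteoglycan, from 456 to 578 RPKM, and Myh11, the smooth muscle myosin, from 314 to 350 RPKM. Lower in uterus 2 were Col1a1, the main fibrillar collagen, from 1184 to 851 RPKM, Acta2, the smooth muscle actin, from 653 to 592 RPKM, and Kdr, a VEGF receptor of endothelium, from 22.9 to 16.6 RPKM.

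Aqp1 was far above the other channels, and 5 of the 9 genes were detected at 1 RPKM or more in both uteri. These were Aqp1, Aqp5, Aqp8, Scnn1a and Scnn1b. The share of 55.6% lies near that of all genes in the table, of which 58.4% were detected. Aqp4 passed 1 RPKM in uterus 2 alone, Cftr and Aqp3 stayed under it in both, and Scnn1g was listed at 0 in both. Between the uteri, Aqp4 was at least 2-fold apart, the 1 such gene of the 6 with a mean of 1 RPKM or more. Aqp3, under that mean, held 0 and 3 reads, too few for a fold.

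**Figure D1:**
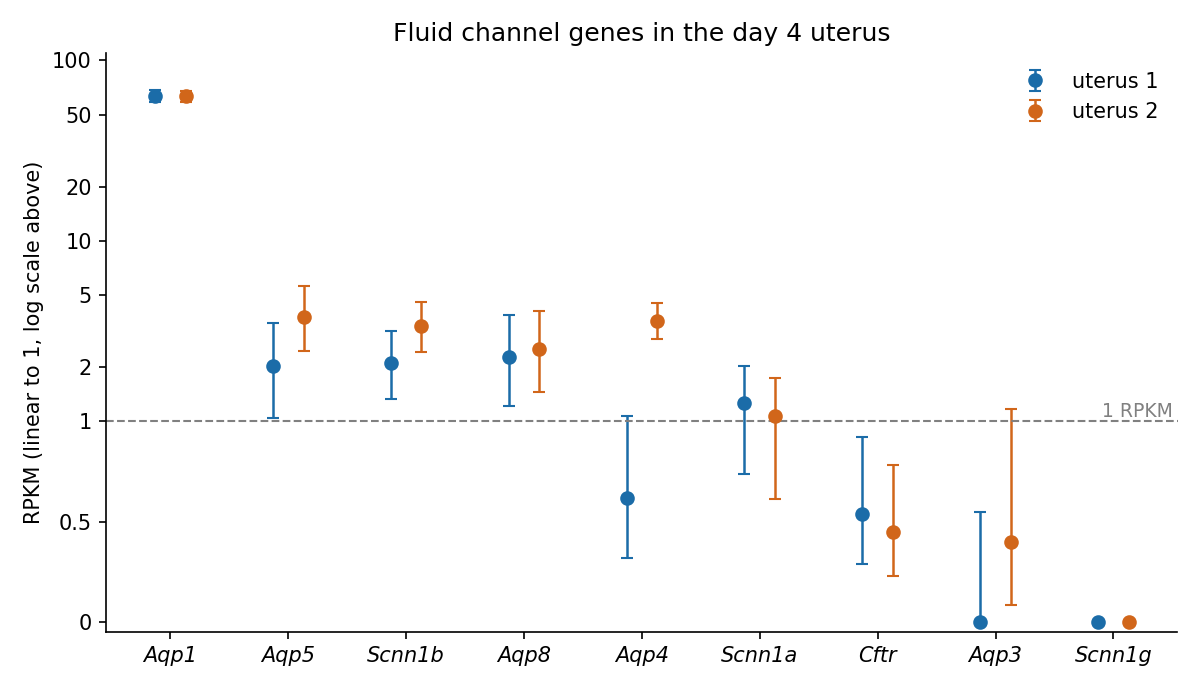
RPKM of the 9 genes in uterus 1 and uterus 2, ordered by mean. Points are single libraries and bars are 95% Poisson intervals of the reads (none for Scnn1g); the axis is linear up to 1 RPKM and logarithmic above. Aqp1 lies near 64 RPKM in both uteri, all other points lie under 4 RPKM, and the intervals of Aqp4 do not overlap.

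Aqp1 encodes the water channel of endothelial cells, red blood cells and kidney tubules (NM_007472, chromosome 6, 55286293 to 55298549 on mouse build NCBIM37, plus strand). It lay at 63.8 RPKM in uterus 1 (95% interval 59.1 to 68.8) and 63.3 RPKM in uterus 2 (58.8 to 68.0), a mean of 63.5 ± 0.378 RPKM (SD, n = 2). The animals overlapped in counting error, with a fold of 0.992 for uterus 2 over uterus 1 (0.892 to 1.10). Of all genes in the table, 96.2% had a lower mean. Aqp1 made up 81.3% of the summed RPKM of the 12 aquaporin genes in uterus 1 and 77.2% in uterus 2.

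Endothelial cells and red blood cells are known to make Aqp1, so their markers are given beside it. Pecam1, an adhesion protein of endothelial cells, lay at 50.7 and 50.9 RPKM, and the ratio of Aqp1 to Pecam1 was 1.26 and 1.24. The ratios were 1.44 and 1.38 to Cdh5, 1.59 and 1.58 to Emcn and 3.81 and 3.62 to Tek. The ratio to Kdr went from 2.78 to 3.81, and Kdr was the 1 of the 5 endothelial markers called different between the libraries (exact binomial adjusted p = 0.00018). Of the red blood cell markers, Alas2, the haem synthesis enzyme of red cell precursors, lay at 6.85 and 6.53 RPKM. Beta-s, an adult beta-globin row outside the marker list and looked up after the other values were seen, lay at 36.7 and 43.0 RPKM. The globin rows Hba-a1 and Hbb-b1 of the list, and Hba-a2 and Hbb-b2 from the same later look-up, were listed at 0 in both uteri, and Slc4a1 and Epb4.2 held at most 2 reads in a library. Beta-globin genes are near-identical copies, so how reads were divided among their rows is uncertain. Rpl26, a ribosomal protein gene that cells in general use, is also listed at 0 in both uteri, so a listed 0 is not read as absence. Level markers are not particular to endothelium. The smooth muscle markers Des and Tagln lay at 216 and 219 RPKM and at 413 and 419 RPKM, although Myh11 and Cnn1 were higher in uterus 2 and Acta2 lower. The part of endothelial cells, red blood cells or any other cell type in the Aqp1 level was not tested.

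Aqp5 and Aqp8 were detected in both uteri at levels under 4 RPKM. Aqp5 encodes the water channel of the apical membrane in salivary, sweat and airway glands (NM_009701, chromosome 15, 99421459 to 99425260, plus strand). It lay at 2.02 RPKM in uterus 1 on 12 reads and 3.79 RPKM in uterus 2 on 25 reads, a mean of 2.90 ± 1.25 RPKM (SD, n = 2). Aqp5 was higher in uterus 2 by a fold of 1.88, and its interval of 0.909 to 4.10 included no difference. In the exact binomial test the Benjamini-Hochberg adjusted p of Aqp5 was 0.376.

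The 4 gland markers were also higher in uterus 2, and none of them passed the same test. Foxa2, a transcription factor of gland cells, lay at 3.07 and 5.19 RPKM, and Spink3, a protease inhibitor, at 46.4 and 71.8 RPKM with an exact binomial adjusted p of 0.0505. Prss29, an implantation serine protease, lay at 3.31 and 4.97 RPKM, and Ttr, a carrier of thyroid hormone, at 4.27 and 5.39 RPKM. Their summed level ran from 57.0 RPKM in uterus 1 to 87.4 RPKM in uterus 2. Markers of adjoining organs were also higher there in sum, from 9.15 to 13.3 RPKM for 3 oviduct and ovary genes and from 1.53 to 2.09 RPKM for 3 urinary bladder genes. Ovgp1, the oviduct glycoprotein, lay at 5.78 and 9.31 RPKM on 56 and 100 reads (exact binomial adjusted p = 0.080). Upk1b, a bladder uroplakin, lay at 1.03 and 1.73 RPKM on 7 and 13 reads. Star of the first list and Upk1a of the second were also higher in uterus 2. Cyp11a1 of the first list went the other way, at 0.441 and 0.132 RPKM on 3 and 1 reads. Upk2 of the second did too, at 0.298 and 0 RPKM on 1 and 0 reads. No gene of either list was called. The part of gland cells or adjoining organs in the Aqp5 values was not tested.

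Aqp8 encodes a water channel that also passes ammonia and hydrogen peroxide (NM_007474, chromosome 7, 130605808 to 130611517, plus strand). It lay at 2.28 RPKM in uterus 1 on 13 reads and 2.53 RPKM in uterus 2 on 16 reads, a mean of 2.41 ± 0.175 RPKM (SD, n = 2). The fold was 1.11 with an interval of 0.50 to 2.51, so no difference was detectable, and at this depth one of up to 2.51-fold is not excluded. Its level and that of Aqp5 overlapped between the animals.

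Aqp4 gave the largest difference among the 9 genes. It encodes the main water channel of astrocytes, and it is also made in skeletal muscle, stomach and lung (NM_009700, chromosome 18, minus strand). It lay at 0.616 RPKM in uterus 1 on 12 reads (0.318 to 1.08) and 3.61 RPKM in uterus 2 on 78 reads (2.85 to 4.50). The fold was 5.86 (3.17 to 11.8), and the log2 ratio after adding 0.1 RPKM was 2.37. The exact binomial test gave a Benjamini-Hochberg adjusted p of 1.9e-09. This test compares the reads of 2 libraries of 1 group, not conditions, and with 1 library per animal the animal and the library cannot be told apart.

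The read number of Aqp4 depends on its transcript length. The 12 and 78 reads belong to the length of 5082 bases, which is that of the annotated transcript with the same start and end as the deposited gene. The steps in the values alone would also allow 2 and 13 reads, for which the exact binomial adjusted p was 0.135. The ratio of the RPKM values is the same in both cases.

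Of all genes tested in this way, 4.95% were called different between the libraries, and 2.29% were called higher in uterus 2. Of the 7 channel genes with enough reads, Aqp4 was called and 6 were not. At a mean of 1 RPKM or more, 2.6% of 13647 genes were at least 2-fold apart and 1.18% were higher in uterus 2 by that much, against 1 of 6 channel genes. Low genes spread more widely: among 2876 genes with a mean from 1 to under 4 RPKM, 271 (9.42%) were 2-fold apart. Counting Aqp4 itself, 34 differed by as much as Aqp4 or more, 19 of them toward uterus 2. The median log2 ratio was 0.40 over the 6 channel genes and 0.0007 over all 13647. Among the genes from 1 to under 4 RPKM, which include all of the 6 but Aqp1, the SD of the log2 ratio was 0.73. The median of 0.40 is therefore not read as a shift of the group.

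**Figure D2:**
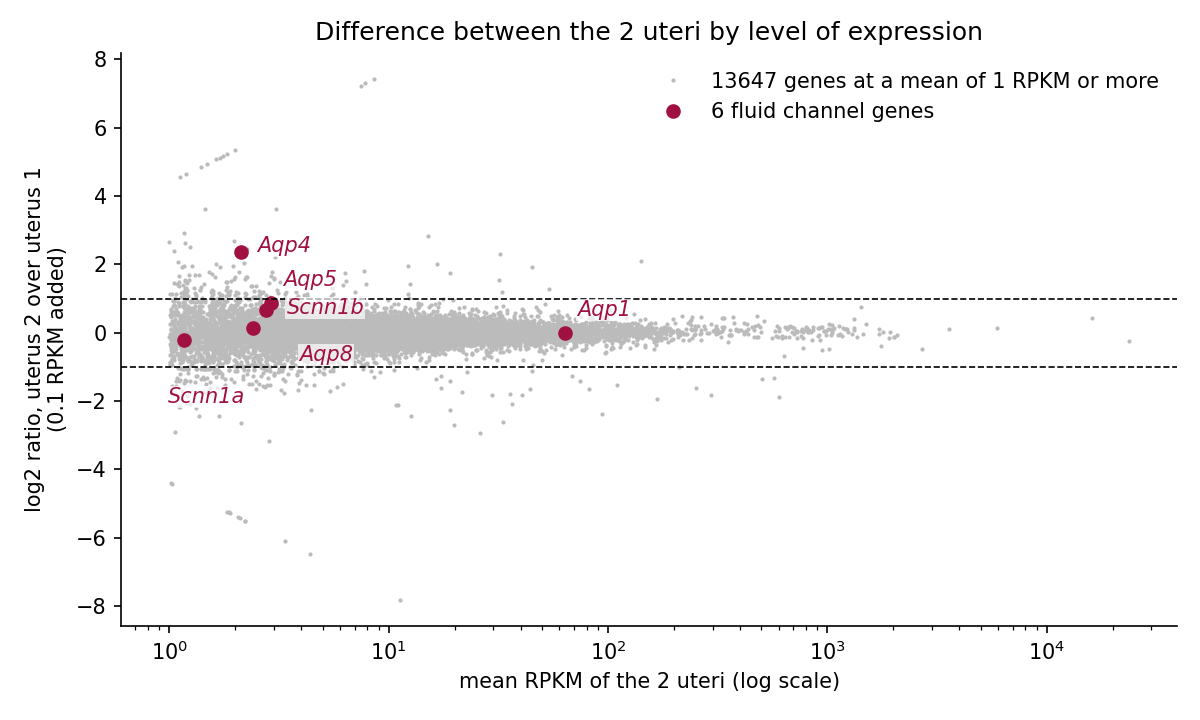
Log2 ratio of uterus 2 over uterus 1 after adding 0.1 RPKM, against the mean RPKM of the 2 uteri on a log axis. Grey points are the 13647 genes averaging 1 RPKM or more, red points the 6 channel genes among them, and dashed lines mark 2-fold. Aqp4 lies above the upper line at 2.37, and the other 5 lie between the lines.

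Markers of nerve, glia and skeletal muscle are given beside Aqp4, since such tissue is known to make it. Of the 2 nerve and glia markers, Gfap, the intermediate filament of astrocytes, lay at 0.705 and 0.635 RPKM, and Sox10, a transcription factor of glial cells, at 0.385 and 0.520 RPKM. Neither was at 0, and their summed level was 1.09 RPKM in uterus 1 and 1.15 RPKM in uterus 2. Of the skeletal muscle markers, Ckm, the muscle creatine kinase, lay at 2.03 and 2.66 RPKM, and Mylpf, a fast-muscle myosin light chain, at 0.345 and 1.24 RPKM on 1 and 4 reads. Acta1, an actin of striated muscle, lay at 78.4 and 89.4 RPKM. The summed level of these 3 was 80.7 and 93.3 RPKM. Nearly all of it was Acta1, so the sum says little about Ckm and Mylpf. Neither Acta1 nor Ckm was called (exact binomial adjusted p = 0.248 and 0.886), and Mylpf had too few reads for the test. The part of skeletal muscle in the Aqp4 difference was not tested. Of the 4 genes beside Aqp4 on the chromosome, 3 were higher in uterus 2, and none of the 4 was called by the exact binomial test. Kctd1 lay at 8.51 and 10.7 RPKM on 117 and 163 reads, Cdh2 at 3.59 and 4.30 RPKM on 64 and 85 reads, and 4933424G05Rik at 1.79 and 2.15 RPKM. Chst9, the nearest, lay at 1.33 and 0.687 RPKM on 7 and 4 reads.

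Aqp3 encodes a channel for water and glycerol in the basolateral membrane of epithelia (NM_016689, chromosome 4, 41039757 to 41045216, minus strand). It was listed at 0 in uterus 1 and lay at 0.400 RPKM on 3 reads in uterus 2. The two-sided Poisson interval of the 0 in uterus 1 reaches 0.546 RPKM, and the one-sided limit of 3 reads for a count of 0 is 0.444 RPKM. The level in uterus 2 lies under both, so no difference was detectable. Aqp7, an aquaglyceroporin 44587 bases from Aqp3, lay at 1.65 and 1.21 RPKM on 16 and 13 reads.

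Among the 7 aquaporins outside the 9 genes, 2 were detected in both uteri. Aqp11, a channel of intracellular membranes, was the second-highest aquaporin at 7.05 ± 0.916 RPKM (SD, n = 2), on 39 and 36 reads, and Aqp7 was the other. The ratio of Aqp1 to Aqp11 was 8.29 in uterus 1 and 9.89 in uterus 2. Aqp2, the vasopressin-regulated channel of the kidney, and Aqp12 were listed at 0. Aqp6, Aqp9 and Mip held 1 to 5 reads in the libraries in which they were seen. On chromosome 15, Aqp5 stands between Aqp2, 6482 bases to its left, and Aqp6, 6570 bases to its right. Of these 3 neighbours, Aqp5 held 12 and 25 reads and Aqp6 held 1 and 0.

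The promoters of Aqp1 and Aqp5 are shown because these were the highest and the next channel gene in the order of means and their start regions differ in composition. Sequences are the 250 bases before the RefSeq start (tables on GRCm38.p6), found once each in NCBIM37, where they end directly before the deposited gene start. The Aqp1 window is chr6:55286043-55286292 and the Aqp5 window is chr15:99421209-99421458, both on the plus strand. Capitals mark GC boxes (GGGCGG on either strand) and the core motif of hormone receptor sites (GGTCA on either strand).
Aqp1: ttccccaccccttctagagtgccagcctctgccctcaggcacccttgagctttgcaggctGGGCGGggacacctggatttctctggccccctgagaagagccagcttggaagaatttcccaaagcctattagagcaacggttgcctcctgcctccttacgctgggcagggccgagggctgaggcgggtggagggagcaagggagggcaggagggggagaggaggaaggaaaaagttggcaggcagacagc
Aqp5: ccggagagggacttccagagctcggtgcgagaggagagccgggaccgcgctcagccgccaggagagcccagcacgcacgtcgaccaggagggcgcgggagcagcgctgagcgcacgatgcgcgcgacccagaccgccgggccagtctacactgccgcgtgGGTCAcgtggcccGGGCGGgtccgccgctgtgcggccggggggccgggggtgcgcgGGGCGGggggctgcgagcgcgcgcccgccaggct

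The Aqp5 window held 38 CpG pairs and 78.4% G or C, and the Aqp1 window held 5 CpG pairs and 62.0% G or C, against a median of 6 and 52.4% over 32851 promoter windows. Of all windows, 98.1% held fewer CpG pairs than that of Aqp5. Aqp1 had 1 GC box, 190 bases before the start, and Aqp5 had 2, at 77 and 34 bases before it. Promoters were found for 7 of the 9 genes, the exceptions being Aqp4 and Scnn1a. A GC box was in 6 of these 7 windows and in 32.7% of all windows, and a CCAAT box (CCAAT on either strand) was in none of the 7 and in 33.8% of all windows. The full oestrogen receptor palindrome, GGTCA and TGACC with 3 bases between them, was in none of the 7 and in 0.0639% of all windows, and TGTTCT, a core of progesterone receptor sites, was in none of the 7 and in 16.1% of all windows. GGTCA, which that palindrome contains, was in 3 of the 7 and in 35.2% of all windows. TATAAA was in the Aqp3 window alone, 29 bases before the start, and in 12.4% of all windows.

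The ENaC subunits had different listed levels, on few reads. Scnn1a encodes the alpha subunit, without which little current flows (NM_011324, chromosome 6, 125271358 to 125294960, plus strand). It lay at 1.27 RPKM in uterus 1 on 17 reads and 1.07 RPKM in uterus 2 on 16 reads, a mean of 1.17 ± 0.136 RPKM (SD, n = 2). The fold was 0.848 (0.401 to 1.78), so no difference between the animals was detectable at this depth.

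Scnn1b encodes the beta subunit (chromosome 7, 129008552 to 129062242, plus strand). It lay at 2.11 RPKM in uterus 1 on 23 reads and 3.38 RPKM in uterus 2 on 41 reads, a mean of 2.75 ± 0.903 RPKM (SD, n = 2). Its fold of 1.61 had an interval of 0.941 to 2.80, and the exact binomial adjusted p was 0.394. Scnn1b was above Scnn1a in both animals, by 1.66 times in uterus 1 and 3.15 times in uterus 2. Their counting intervals overlapped in uterus 1 (0.738 to 2.03 for Scnn1a, 1.34 to 3.16 for Scnn1b) and did not in uterus 2 (0.614 to 1.75 and 2.43 to 4.59). The deposited row carries a non-coding transcript (NR_073548), and an annotated transcript of the neighbouring gene Cog7 overlaps it. Cog7 lay at 10.04 and 9.45 RPKM, and the use of strand in counting is not given in the sources used here, so some of the reads given to Scnn1b may be those of Cog7.

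Scnn1g encodes the gamma subunit (NM_011326, chromosome 7, 128878021 to 128911991, plus strand) and was listed at 0 in both uteri. It lies 96560 bases from Scnn1b on the same strand, and no other gene of the table lies between them. The promoters of this pair are shown to set the starts of the 2 genes side by side, with the same capitals. The Scnn1b window, chr7:129008302-129008551, ends directly before the deposited start, and the Scnn1g window, chr7:128877743-128877992, lies before a RefSeq start 28 bases upstream of the deposited one.
Scnn1b: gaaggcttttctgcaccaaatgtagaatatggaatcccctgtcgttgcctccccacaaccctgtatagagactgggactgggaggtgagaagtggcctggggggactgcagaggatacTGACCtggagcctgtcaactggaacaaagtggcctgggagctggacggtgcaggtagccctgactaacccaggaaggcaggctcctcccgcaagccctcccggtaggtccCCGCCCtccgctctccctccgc
Scnn1g: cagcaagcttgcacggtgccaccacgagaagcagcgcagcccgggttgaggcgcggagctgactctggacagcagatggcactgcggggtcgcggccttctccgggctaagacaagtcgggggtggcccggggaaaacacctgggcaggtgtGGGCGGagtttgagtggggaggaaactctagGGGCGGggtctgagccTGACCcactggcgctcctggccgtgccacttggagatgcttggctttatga

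Both windows held GC boxes. Scnn1b had 1, 22 bases before the start, and Scnn1g had 2, at 98 and 67 bases before it. Each had 1 GGTCA motif on the reverse strand, 132 bases before the start in Scnn1b and 51 bases in Scnn1g. The Scnn1g window held 16 CpG pairs and the Scnn1b window 7. These matches describe the letters and were not tested as binding sites.

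Cftr (NM_021050, chromosome 6, 18120687 to 18272769, plus strand, 27 annotated exons) was lower than both detected ENaC subunits. It lay at 0.538 RPKM in uterus 1 on 13 reads (0.286 to 0.920) and 0.447 RPKM in uterus 2 on 12 reads (0.231 to 0.781), a mean of 0.493 ± 0.0641 RPKM (SD, n = 2). The ratio of Scnn1a to Cftr was 2.36 in uterus 1 and 2.40 in uterus 2. That of Scnn1b to Cftr was 3.92 and 7.57. The ranges of Scnn1a and Cftr did not overlap between the animals, but their counting intervals did within each library. The annotated genes Gm15592 and Gm15595 overlap Cftr, and their reads were not analysed here. The Cftr promoter window held 6 GC boxes, of which 3 overlap each other, and 30 CpG pairs.

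In the order of mean level, Aqp1 stood apart from all others. Aqp5, Scnn1b, Aqp8, Aqp4 and Scnn1a followed, and the ranges of each neighbouring pair in this order overlapped. Cftr and then Aqp3 lay below them. The ranges of Cftr and Aqp3 did not overlap, but Aqp3 held only 3 reads, and Aqp3 and Scnn1g overlapped at 0.

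Genes of fluid transport around these channels were taken from 11 lists: regulators and partners of ENaC and CFTR, the sodium pump, transporters, and other channels of the same or related families. Of the 66 genes, 51 (77.3%) were detected in both uteri, against 58.4% of all genes. Lists with a share under that of all 66 genes were the other aquaporins (2 of 7), the acid-sensing channels (2 of 5), the SLC26 exchangers (1 of 4) and bicarbonate and proton transport (6 of 9). At a mean of 1 RPKM or more there were 52, of which 1 was 2-fold apart, against 2.6% of all genes at that mean, and their median log2 ratio was 0.02. The exact binomial test with Benjamini-Hochberg adjustment called 1 of 57 tested genes, Hsd11b2, lower in uterus 2, against 4.95% of all genes.

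**Figure D3:**
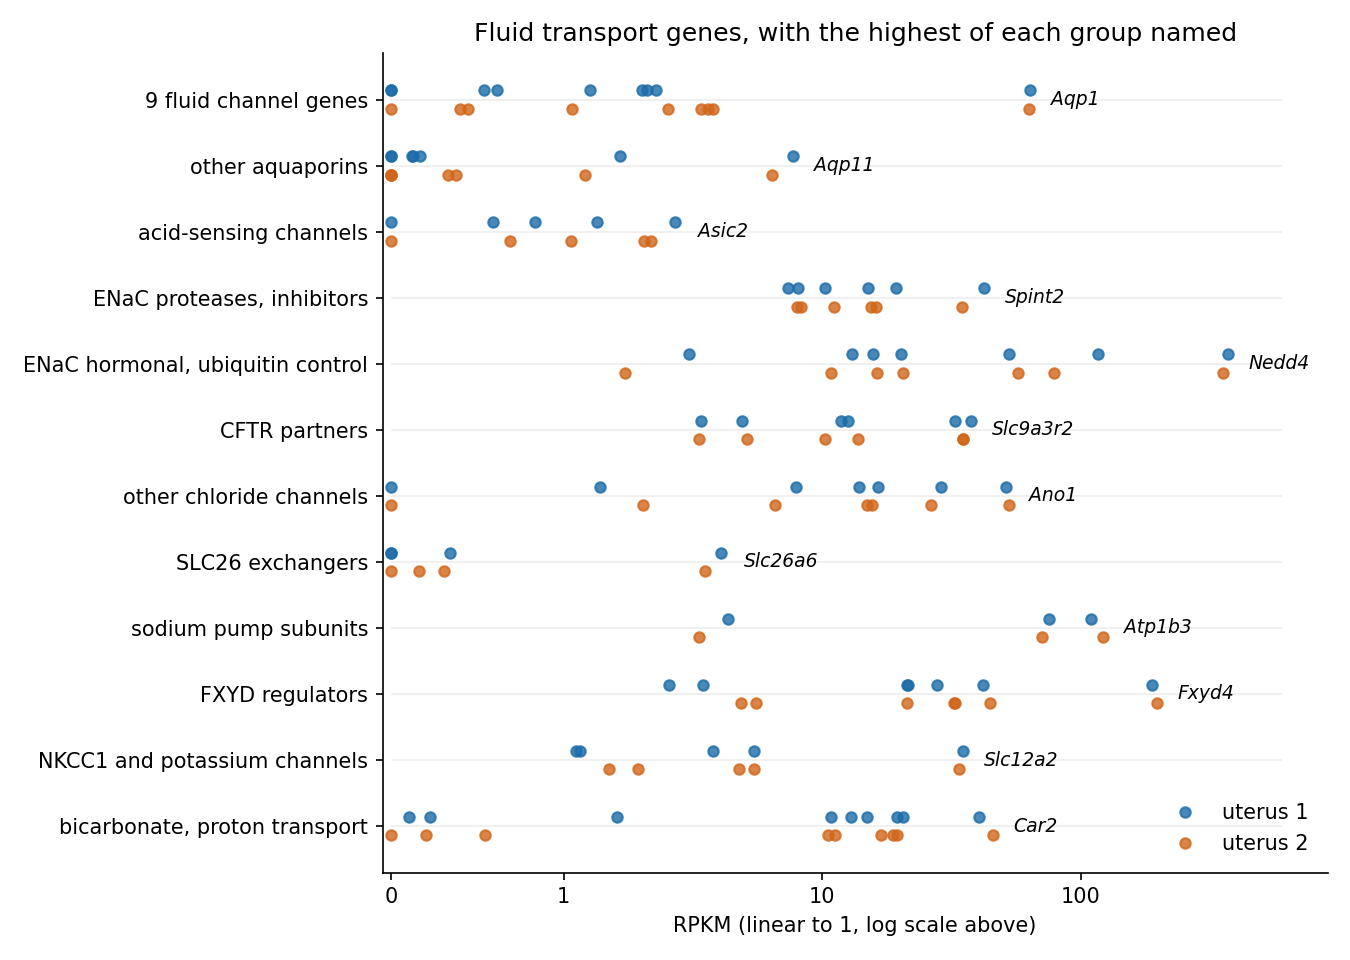
RPKM of the 9 channel genes and of 11 lists of fluid transport genes, 1 point per gene and library, uterus 1 above uterus 2 in each row. The axis is linear up to 1 RPKM and logarithmic above, and the gene with the highest mean of each list is named. Nedd4, Fxyd4 and Atp1b3 lie above 100 RPKM in both uteri and Hsd11b2 in uterus 1 alone, and 8 of the 9 channel genes lie under 4 RPKM.

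All 6 ENaC proteases and protease inhibitors were detected. Prss8, which encodes prostasin, a protease that activates ENaC, lay at 10.2 and 11.1 RPKM, 8.08 and 10.3 times the level of Scnn1a. Furin, which cleaves the channel on its way to the membrane, lay at 17.7 ± 2.14 RPKM (SD, n = 2), and St14, which encodes matriptase, at 7.71 ± 0.432 RPKM. Spint2, an inhibitor of such proteases, was the highest of the list at 38.5 ± 5.47 RPKM. Tmprss2 and Spint1 lay at 15.2 and 8.15 RPKM on average.

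All 7 genes of hormonal and ubiquitin control were detected. Nr3c2, the mineralocorticoid receptor, lay at 3.06 and 1.72 RPKM on 48 and 30 reads, with an exact binomial adjusted p of 0.146. Hsd11b2, the enzyme that keeps glucocorticoids away from that receptor, was lower in uterus 2, at 117 and 78.9 RPKM on 829 and 621 reads, with an exact binomial adjusted p of 2.8e-11. Sgk1, the aldosterone-induced kinase that keeps ENaC at the membrane, lay at 16.0 ± 0.335 RPKM (SD, n = 2). Tsc22d3, another steroid-induced regulator, lay at 54.8 ± 2.98 RPKM. Nedd4l, the ubiquitin ligase that removes ENaC, lay at 11.9 ± 1.55 RPKM, and its relative Nedd4 at 364 ± 10.3 RPKM, the highest of all 66 genes. Nr3c1, the glucocorticoid receptor, lay at 20.3 ± 0.244 RPKM.

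The sodium pump sets the gradient for absorption and secretion, and the 3 beta subunit genes followed here were all detected. Atp1b3 lay at 116 ± 8.76 RPKM (SD, n = 2), Atp1b1 at 73.2 ± 3.23 RPKM and Atp1b2 at 3.83 ± 0.696 RPKM. All 7 FXYD genes, small proteins that tune the pump, were detected, and none of them passed the test. Fxyd4, which raises the pump's affinity for sodium, was the highest at 189 and 197 RPKM, above Aqp1.

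Slc12a2, the NKCC1 cotransporter that loads cells with chloride for secretion, lay at 34.4 ± 0.927 RPKM (SD, n = 2), 65.2 and 75.4 times Cftr in the 2 uteri. The potassium channel genes of the same list were lower, from Kcnn4 at 1.33 ± 0.245 RPKM to Kcnk5 at 5.44 ± 0.0147 RPKM. Among other chloride channels, Ano1, a calcium-activated channel known from secretory epithelia and from pacemaker cells of gut muscle, lay at 51.4 and 52.6 RPKM, 95.6 and 118 times Cftr. Ano6 lay at 27.6 ± 1.73 RPKM, and Best2 was listed at 0. Of the SLC26 exchangers, which work beside CFTR in other epithelia, Slc26a6 was detected at 3.79 ± 0.391 RPKM. Slc26a3 and Slc26a4 held at most 4 reads in a library, and Slc26a9 was listed at 0.

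The 6 CFTR scaffold and trafficking genes were all detected, from Pdzk1 at 3.36 ± 0.0352 RPKM (SD, n = 2) to Slc9a3r2 at 36.3 ± 1.90 RPKM. Ezr, which encodes ezrin, a link between membrane and actin, lay at 33.8 ± 1.72 RPKM, and Slc9a3r1, which encodes the scaffold NHERF1, at 13.2 ± 0.844 RPKM. In bicarbonate and proton transport, 6 of 9 genes were detected. Car2, a cytosolic carbonic anhydrase, was the highest at 43.1 ± 3.66 RPKM, and Car12, a membrane form, lay at 15.9 ± 1.46 RPKM. Car4 was the 1 gene of the 11 lists with a mean of 1 RPKM or more that was 2-fold apart, at 1.61 and 0.542 RPKM, on 8 and 3 reads, with an exact binomial adjusted p of 0.50. Below that mean, Slc26a3, Aqp6 and Slc9a3 were seen in 1 library each, with 1 or 2 reads, and are given no fold. Slc9a3, the sodium-proton exchanger of absorbing gut and kidney cells, held 1 read in all. Of the 5 acid-sensing channels, which are relatives of ENaC, Asic2 and Asic3 were detected, at 2.37 ± 0.451 RPKM and 1.76 ± 0.590 RPKM.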

How the data were processed

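RNA was extracted with TRIzol from the whole uterus of 2 mice, and libraries were made with the TruSeq RNA kit, per the labels' protocols. The design text adds poly-A selection, HiSeq2500 sequencing and RPKM. The deposited values are RPKM computed by the authors. TopHat, edgeR and mm9 are named in the submitters' processing notes, without roles; the annotation, counting program and use of strand are not given in the sources used here. The 22740 genes have the same values in both deposited tables. Deposited coordinates were compared with GENCODE M1 on NCBIM37 (the build also called mm9): symbol and chromosome matched for 20733 genes, and in 11970 an annotated start lay 1 base after the deposited one, so starts were read as counted from 0.

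RPKM is not a count. In single-exon genes whose ends match the annotation, all 209 values above 0 in uterus 1 and all 217 in uterus 2 were whole multiples (tolerance 0.0001 reads) of the value of 1 read, with scaling totals of 3834174 and 4256101. For every other gene the transcript length was taken as the whole number of bases, nearest the annotated one, that gave whole reads in both libraries, which succeeded for 17425 of 17426 genes above 0. Where no annotated length was found (1205 of the 17426 genes), the shortest such length was taken, which gives the fewest reads. The recovered length lay within 5% of the annotated one for 11496 of the 16221 genes that have one, so read numbers of the others are less certain, and the recovered reads sum to more than the scaling totals. The recovery and the test were tested on simulated data. The two-sided exact binomial test (scipy 1.17.1) used genes with at least 6 reads and Benjamini-Hochberg adjustment over 15163 genes, called under 0.05. Log2 ratios add 0.1 RPKM, which understates the change of low genes. Detection means 1 RPKM in both libraries. All 9 genes are described, and genes of the fixed lists were named where highest or lowest of their list, detected, 2-fold apart or a known partner. The genes and lists were chosen with earlier results of these data known. Some genes of these lists are not reported here. No likeness of pattern between genes was computed, since 2 libraries of 1 group give none. The p-values measure counting error between 2 libraries only.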

Additional observations from a re-analysis of the deposited data

How the results depend on the processing

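The detected count of 5 genes stayed within 1.5 times under all alternatives run: 6 at 0.5 RPKM, 4 at 2 RPKM, 7 on the TPM scale (RPKM rescaled to the same sum in both libraries), and 5 to 6 when either library was left out. The 1 gene at least 2-fold apart, Aqp4, became 2 without a filter on the mean, which added Aqp3 on 0 and 3 reads. It became 0 at a mean of 10 RPKM, where only Aqp1 is left. Of all genes, 1846 of 22740 were 2-fold apart without a filter and 48 of 7311 at a mean of 10 RPKM, against 355 of 13647 in the main setting. Aqp4 was the 1 gene under pseudocounts of 0.01 and 1, on the TPM scale and after centring on the median of all genes. Its log2 ratio fell to 1.51 with a pseudocount of 1. Of all genes, these settings gave 388 and 153 of 13647, 736 of 14922 and 354 of 13647. The 1 gene called by the exact binomial test, again Aqp4, became 0 with the smallest possible reads. There Aqp4 holds 2 and 13 reads and the adjusted p was 0.135. With the smallest possible reads 3.89% of all genes tested were called, against 4.95% in the main setting. That alternative leaves fewer reads by construction. With library sizes from summed reads or a minimum of 20 reads the adjusted p of Aqp4 was 1.9e-09 and 1.7e-09. Of all genes tested, 4.99% and 5.72% were called. The TPM scale changes the unit and raised 7 of 9 means by more than their SD, that of Aqp1 to 150 and that of Cftr to 1.17. For a mean of 2 libraries, leaving out either moves it by less than 1 SD by construction. Depth limits the 8 genes other than Aqp1, which hold 90 and 191 reads in all. No paired analysis was possible because both libraries belong to the same group.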
